A study of Mus musculus with 2 samples.

Results

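The comparison asked which autosomal genes changed differently in the somatic cells of the cultured ovary (XX) and testis (XY) between 24 and 72 h of culture. Its measure is the interaction, the XX change from 24 to 72 h minus the XY change over the same interval, given as a log2 difference. Every autosomal gene tested in both sexes was compared, and the genes described are the 296 of 14543 whose interaction passed the test. The comparison used 16 of the 40 libraries in the somatic count table, 4 libraries in each of 4 groups: XX DMSO 24 h, XX DMSO 72 h, XY DMSO 24 h and XY DMSO 72 h. All were made from gonad-mesonephros pairs taken at E12.5 from ASMU Swiss females crossed to 129svJT2 males carrying Oct4-eGFP, a transgene that marks germ cells, and the genotype was otherwise wild type. Gonads were sexed by the presence of cords. All 4 groups received the DMSO vehicle with no inhibitor. The mesonephros was cut away after culture, 6 to 15 gonads were pooled for each library, and the GFP-negative cells were sorted, so a library is a pool of all somatic cell types and of several embryos. Totals of unique molecular identifiers in these libraries were between 1763507 and 4836550. The 24 h groups belonged to library set 3 and the 72 h groups to set 4, so culture time and library set cannot be told apart within a sex, whereas a set effect shared by XX and XY drops out of the interaction.

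At the start of culture the bipotential gonad has already committed to one of 2 fates. In the testis, Sry and Sox9 direct supporting cells to become Sertoli cells, which form cords and signal through Dhh to interstitial cells, some of which become steroid-producing foetal Leydig cells. In the ovary, Rspo1, Wnt4 and Foxl2 hold supporting cells on the pre-granulosa path and follistatin (Fst) restrains activin.

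The sexes of the libraries matched their names. Xist, transcribed from the inactive X chromosome, had 1522 to 2427 counts in each XX library and 0 to 9 in each XY library. Ddx3y, on the Y chromosome, had 135 to 253 counts in each XY library and 0 to 2 in each XX library. Sox9 (XY 321 ± 63 CPM at 24 h and 318 ± 57.5 at 72 h; XX 71.3 ± 11.7 and 91.4 ± 15.4) and Dhh marked XY, and Foxl2 and Irx3 marked XX. CPM is a gene's count relative to the library total after TMM scaling. Values after ± are SD over 4 libraries, and for log2 values SE. Amh, which defines Sertoli cells, had only 14 to 19 counts in each XY library at 24 h and 1 to 13 at 72 h, and Insl3, which defines Leydig cells, had 0 to 9 counts in any XY library and was not tested. Germ cell RNA was present at 24 h and was lower at 72 h in both sexes. Over the 13 germ cell identity genes tested, the summed level was 149 to 296 CPM in XX and 164 to 260 CPM in XY at 24 h, against 57.0 to 65.4 and 37.0 to 63.2 CPM at 72 h. Among defining germ cell markers, Ddx4 fell from 8.53 ± 2.45 to 0.297 ± 0.594 CPM in XX and from 7.13 ± 1.97 to 2.1 ± 2.01 in XY, and Pou5f1 had 0 to 21 counts in any library and was not tested. In these bulk libraries, fewer cells of a type and less RNA per cell cannot be told apart.

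Of 14543 autosomal genes tested, 296 (2.04%) had an interaction at FDR below 0.05 (Benjamini-Hochberg adjustment over all genes tested, by the quasi-likelihood test of edgeR) and at least 1.5-fold, and are called DEGs here. The XX change was the more positive in 184 (1.27%, described as toward XX) and the XY change in 112 (0.770%, toward XY). At an unadjusted p under 0.05 there were 1758 genes. From 24 to 72 h, 1182 genes (8.13%) changed in XX, of which 5.17% of all tested rose and 2.96% fell. In XY 1047 genes (7.20%) changed, and 4.10% rose and 3.10% fell. Of these, 384 were called in both sexes in the same direction (32.5% of the XX list and 36.7% of the XY list), and 15 in opposite directions. Across the 11404 genes with at least 10 CPM in a group, the XX and XY changes correlated at r = 0.551, a description over genes that share libraries and library sets. The median interaction over all autosomal genes was 0.02, and the median size among DEGs was 1.17.

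**Figure D1:**
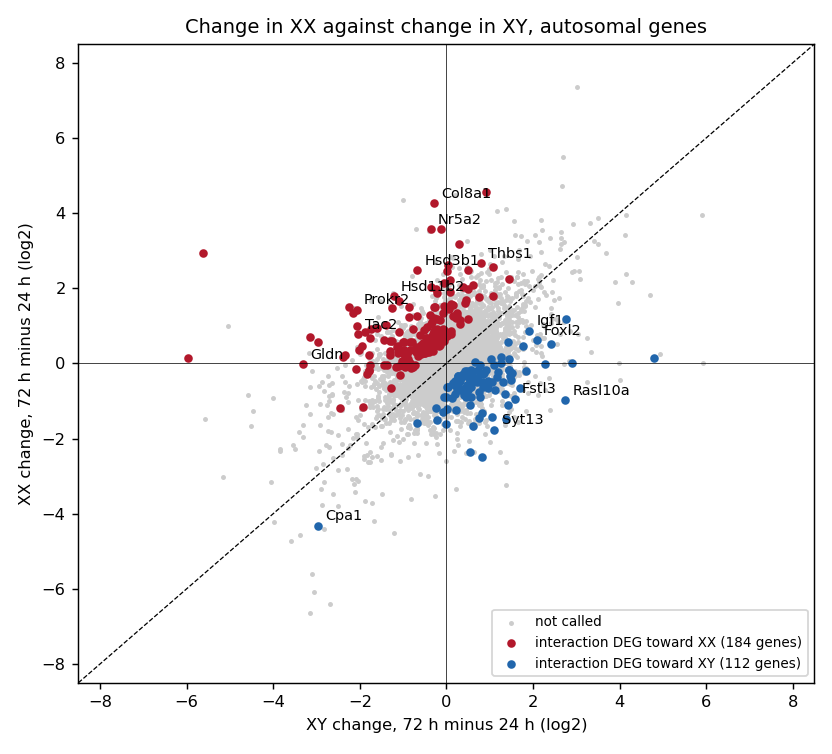
Change from 24 to 72 h in XX (vertical axis, log2) against the change in XY (horizontal axis, log2), one point for each autosomal gene tested; red points are the 184 DEGs toward XX, blue points the 112 DEGs toward XY and grey points the rest. The dashed line marks equal change, and the DEGs lie above and below it because the difference between the axes is what they were called on.

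The sexes did not simply move apart. At 24 h, 2821 autosomal genes (19.4%) differed between XX and XY, 8.83% of all tested being higher in XX and 10.6% in XY. At 72 h 2930 (20.1%) did, 9.40% higher in XX and 10.7% in XY. Of the 296 DEGs, 130 (43.9%) had a gap between the sexes that widened (38) or opened (92), and 132 (44.6%) had one that narrowed (55) or closed (77). In a further 18 the order crossed, so that the sex with the higher level at 24 h had the lower level at 72 h, and in 16 no gap was called at either time. Opened means that the sexes differed by the same criterion only at 72 h, and closed only at 24 h. A gap called at one time and not at the other rests here on the interaction, which tests the difference between the 2 gaps. Over the 11404 genes with at least 10 CPM in a group, the median absolute gap was log2 0.236 at 24 h and 0.275 at 72 h, the highest library totals in each sex being at 24 h, and the gaps at the 2 times correlated at r = 0.844 across genes. By the size of the estimates alone, the gap was larger at 72 h than at 24 h in 150 of the 296 DEGs, so the name divergence described about as many of them as convergence did.

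**Figure D2:**
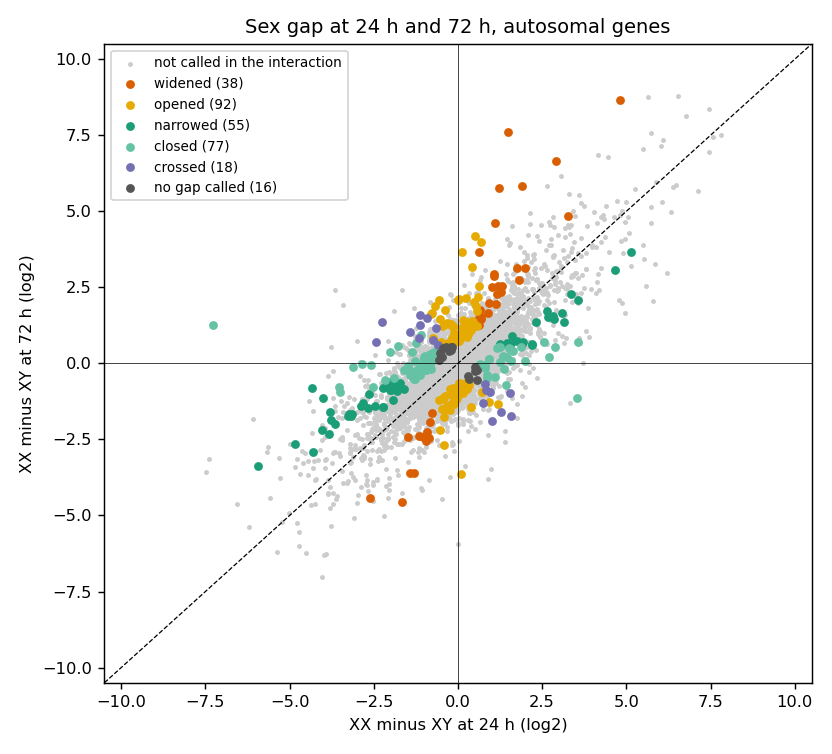
XX minus XY at 72 h (vertical axis, log2) against XX minus XY at 24 h (horizontal axis, log2) for each autosomal gene tested; coloured points are DEGs, by whether the gap widened (38 genes), opened (92), narrowed (55), closed (77), crossed (18) or was called at neither time (16). Genes whose gap narrowed or closed (132) were about as many as those whose gap widened or opened (130).

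By the sex that moved, the largest class toward XX rose in XX with no call in XY (77 genes), followed by 61 that fell in XY with no call in XX. In 10 genes XX rose while XY fell, in 5 both rose, in 3 both fell, and in 28 neither change alone was called. Toward XY, 44 genes rose in XY with no call in XX, 32 fell in XX with no call in XY, 5 fell in XX and rose in XY, 3 rose in both, 2 fell in both, and 26 had no call in either sex.

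Several steroid and hedgehog genes that were higher in the testis at 24 h had a smaller gap, or none, at 72 h. Hsd3b1, which encodes the 3β-hydroxysteroid dehydrogenase that turns pregnenolone into progesterone, had 75, 65.2, 83.7 and 101 CPM in the XX libraries at 24 h and 431, 454, 475 and 436 at 72 h. In XY it had 423, 347, 389 and 603 CPM at 24 h and 252, 255, 351 and 240 at 72 h. Every XX library was below every XY library at 24 h and above every one at 72 h. The gene rose in XX (log2 2.48 ± 0.19, FDR = 9.77e-15) and fell in XY (log2 -0.68 ± 0.17, FDR = 0.00477), although the XY libraries of the 2 times overlapped, and the interaction was log2 3.16 ± 0.25, FDR = 6.29e-13. At the start of culture it stood at 35.4 ± 10.4 CPM in XX and 82.2 ± 25.4 in XY (n = 4 each). The paralogues Hsd3b2, Hsd3b3 and Hsd3b6 had at most 0, 2 and 60 counts in any of the 16 libraries.

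Hsd11b2, which encodes the enzyme that inactivates corticosterone, followed the same course without crossing. Its XX libraries went from 19.8, 25, 15.3 and 15.8 CPM to 83.7, 52.3, 68.6 and 62.3. Those of XY went from 141, 163, 172 and 199 CPM to 76.1, 72.1, 54.3 and 87.2. XX rose, XY fell, and the groups, apart at 24 h, overlapped at 72 h (log2 2.995 ± 0.26, FDR = 3.27e-12). Cyp17a1, whose product makes androgen precursors, fell in XY from 82.2, 85.5, 95.3 and 124 CPM to 22.9, 24.9, 31.4 and 32.7, while XX had 15.3 ± 2.36 and 13.3 ± 4.72 CPM (log2 1.63 ± 0.43, FDR = 0.025). Leave-one-out fits each left out 1 of the 16 libraries. Cyp17a1 was called in 11 of the 16 leave-one-out fits, and not without XX 24 h F4, XY 24 h M5, XX 72 h F7, XY 72 h M2 and M4 (FDR 0.054 to 0.192). Cyp11a1, the side-chain cleavage enzyme that starts steroid synthesis, had an interaction of 1.01 (FDR = 0.297) at 143 ± 25.1 and 123 ± 34.9 CPM in XY. Star, the cholesterol carrier, had one of 0.14 (FDR = 0.919). Gramd1b, a sterol transfer protein, was the third DEG toward XX of the foetal Leydig list (log2 1.25 ± 0.33, FDR = 0.0229). Gramd1b was called in 8 of the 16 leave-one-out fits, and not without XX 24 h F4, F5 and F9, XY 24 h M3, XX 72 h F11 and F8, XY 72 h M4 and M6 (FDR 0.0525 to 0.125).

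Of the 16 foetal Leydig steroidogenesis genes tested, 3 were called toward XX and 0 toward XY, against 1.27% and 0.770% of all autosomal genes. The median interaction was 0.47, against 0.02 for all autosomal genes. In XY 5 members fell (Hsd3b1, Cyp17a1, Star, Gramd1b and Nr0b2) and 0 rose, against 3.10% and 4.10% of all autosomal genes. By the same criterion 8 members were higher in XY at 24 h and 5 at 72 h, against 10.6% and 10.7% of all autosomal genes. The list's summed level was 672 to 741 CPM in XX and 1320 to 1670 in XY at 24 h, and 1110 to 1250 in XX and 1130 to 1390 in XY at 72 h. That overlap at 72 h rested on Hsd3b1: without it, a sum added after seeing the data, the level was 607 to 648 CPM in XX and 928 to 1070 in XY at 24 h, and 658 to 821 and 883 to 1030 at 72 h, apart at both times. Of the 17 cholesterol synthesis genes tested, 0 were called in the interaction by edgeR, DESeq2 or voom, where edgeR called 2.04% of all autosomal genes. An unadjusted p under 0.05 was found for 4 of the 17, and for 1758 of the 14543 autosomal genes. All 17 estimates were positive, where 53.0% of autosomal genes were (median 0.35). Msmo1 and Sc5d, late enzymes of that pathway, rose in XX, from 72.1 ± 13.8 to 153 ± 34 and from 74.9 ± 12.7 to 136 ± 18.2 CPM.

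Prokr2, the receptor of prokineticin 2, and Tac2, which encodes neurokinin B, were testis genes at 24 h that lost most of their level by 72 h. Prokr2 had 80.4, 75.1, 68.3 and 65.3 CPM in XY at 24 h and 17.9, 16.9, 16.4 and 17.1 at 72 h, against 3.47, 3.19, 1.91 and 5.52 and 9.35, 5.87, 11 and 11.5 in XX. No XX library reached an XY library at either time, yet the interaction was among those with the smallest FDR (log2 3.51 ± 0.38, FDR = 3.93e-09). Tac2 went from 63.3, 50.8, 54.8 and 71.6 CPM to 13.6, 13.9, 12.9 and 17.5 in XY and from 8.24 ± 2.81 to 14.4 ± 2.79 in XX, and its groups overlapped at 72 h (log2 2.82 ± 0.32, FDR = 1.68e-08). Nts, which encodes neurotensin, fell from 79.6 ± 48.2 to 15.5 ± 7.29 CPM in XY with 6.72 ± 2.76 and 8.13 ± 1.01 in XX (log2 2.57 ± 0.53, FDR = 0.00213). The serine protease gene Prss12 was a further gene that fell in XY (log2 2.74 ± 0.61, FDR = 0.00561). Prss12 was called in 15 of the 16 leave-one-out fits, and not without XX 72 h F7 (FDR = 0.103).

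Of 12 hedgehog genes tested, 2 were called toward XX and 0 toward XY, against 1.27% and 0.770% of all autosomal genes, at a list median of 0.02. Gli1, a transcription factor that is both effector and target of the pathway, rose in XX from 6.25, 7.6, 7.65 and 6.31 CPM to 15.4, 14.1, 26.4 and 26.2, with no overlap. It stood at 99.5 ± 16.6 and 106 ± 7.91 CPM in XY (log2 1.49 ± 0.30, FDR = 0.00139). Hhip, a target that encodes a decoy for the ligands, fell in XY from 46.1, 69.2, 63.5 and 46 CPM to 24.6, 18.9, 30.9 and 19.9. It stood at 3.35 ± 1.87 and 5.22 ± 1.68 in XX (log2 1.87 ± 0.48, FDR = 0.0216). Hhip was called in 11 of the 16 leave-one-out fits, and not without XX 24 h F5 and F6, XX 72 h F4, F7 and F8 (FDR 0.0585 to 0.0726). Their gaps narrowed from opposite sides, one through XX and one through XY. The ligand gene Dhh (67.4 ± 19.4 and 54.4 ± 11.9 CPM in XY) and the receptor and target Ptch1 (169 ± 35 and 188 ± 19.4) had interactions of 0.71 and 0.12 that were not called. Ddx3y, on the Y chromosome, was at 0.492 ± 0.354 CPM in XX at 24 h and 0.609 ± 0.362 at 72 h.

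**Figure D3:**
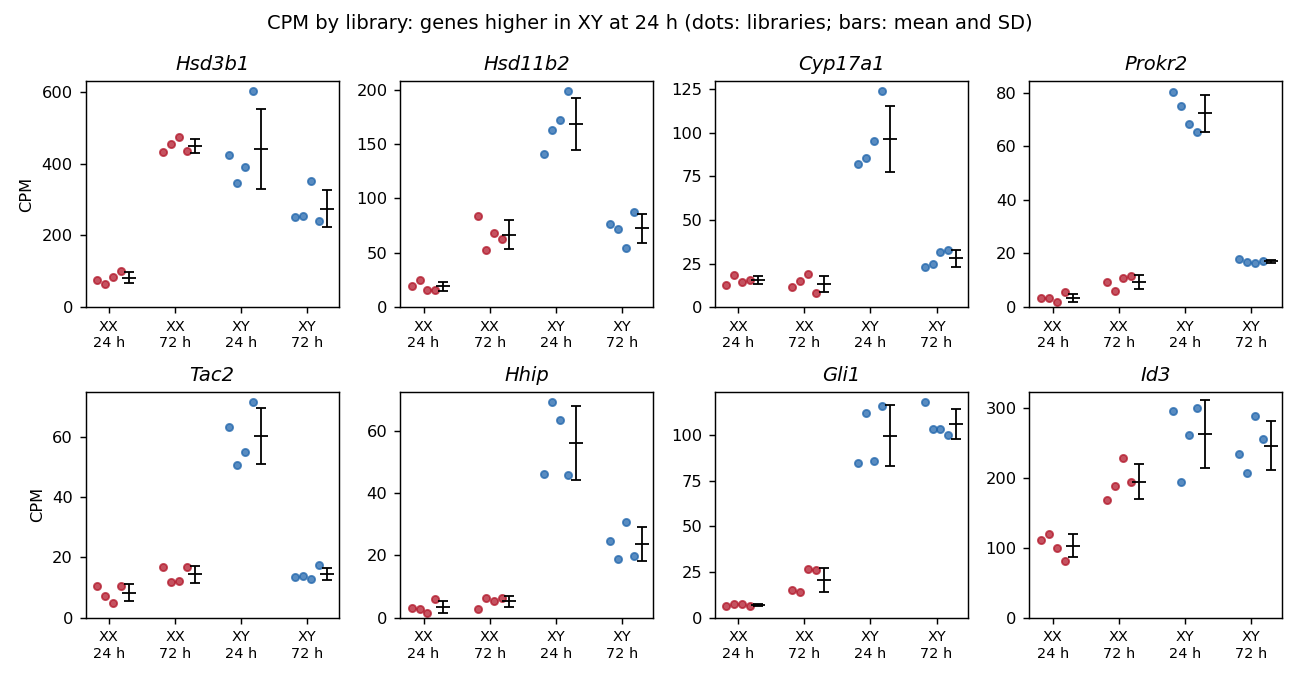
CPM of 8 genes that were higher in XY than in XX at 24 h, by group; red dots are XX libraries, blue dots XY libraries, and black bars the mean ± SD of 4 libraries. Hsd3b1 in XX rose past XY by 72 h, Prokr2, Tac2, Cyp17a1 and Hhip fell in XY, and Gli1 and Id3 rose in XX.

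Id3, a target of BMP signalling that blocks bHLH transcription factors, rose in XX from 112, 120, 99.5 and 81.2 CPM to 168, 189, 228 and 195. It stood at 263 ± 49.4 and 247 ± 34.9 CPM in XY, so that its gap closed (log2 1.00 ± 0.17, FDR = 0.000158). In the same list of 18 activin, BMP and TGFβ genes, only Id3 was called toward XX, against 1.27% of all autosomal genes. The activin-binding genes Fst and Fstl3 were called toward XY, against 0.770%, and the list median was 0.20. Fstl3 crossed: its XX libraries went from 20.1, 24.3, 17.2 and 19.7 CPM to 12.6, 10.6, 9.81 and 9.94. Those of XY went from 9.3, 6.44, 5.56 and 7.47 CPM to 22.6, 29.8, 14.9 and 16.1, apart at both times and in opposite order (log2 -2.52 ± 0.35, FDR = 3.68e-06). Inha, which encodes the inhibin α subunit, rose in XX from 467 ± 81.5 to 888 ± 70 CPM, with an interaction of 0.57 that was not called.

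Several DEGs toward XX rose in XX from a low level. Col8a1, a collagen chain, went from 14.9, 7.6, 12.9 and 6.7 CPM in XX at 24 h to 223, 142, 186 and 247 at 72 h, and stayed between 1.99 and 7.15 CPM in every XY library (log2 4.55 ± 0.48, FDR = 3.88e-09). Nr5a2, a nuclear receptor needed later in granulosa cells, went from 6.94, 1.72, 6.22 and 5.52 to 65, 51.7, 53.5 and 63.3 CPM in XX. It was at 1.33, 1.49, 0.996 and 0 CPM in XY at 72 h (log2 3.93 ± 0.77, FDR = 0.00102). Bmp3, a TGFβ family ligand, had 3.12, 5.64, 5.74 and 1.58 CPM in XX at 24 h and 47.2, 42.9, 44.3 and 61.2 at 72 h (log2 3.69 ± 0.69, FDR = 0.000549). At the start of culture Col8a1 and Nr5a2 were at 1.71 ± 0.412 and 0.984 ± 0.898 CPM in XX and at 2.17 ± 0.797 and 1.21 ± 0.555 in XY.

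Thbs1, which encodes the matrix protein thrombospondin 1, rose in both sexes and more in XX. Its XX libraries went from 36.1, 37, 70.8 and 23.3 CPM to 292, 194, 251 and 304. Those of XY went from 16.4, 26.3, 18.8 and 14.9 CPM to 30.6, 28.8, 29.4 and 46.4 (log2 1.87 ± 0.29, FDR = 2.94e-05). The related Thbs2 also rose in both but more in XY, from 4.18 ± 1.91 to 30.3 ± 5.38 CPM against 20.7 ± 6.21 to 45.9 ± 4.64 in XX (log2 -1.59 ± 0.37, FDR = 0.00838). Slc18a2, the vesicular monoamine transporter, went from 29.5, 33.6, 47.8 and 22.1 CPM to 120, 81.7, 78.2 and 94.2 in XX and from 2.15, 7.44, 4.41 and 2.36 to 0.997, 0, 1.99 and 0.474 in XY (log2 3.75 ± 0.61, FDR = 6.25e-05). Adamdec1, a secreted protease gene, had 57, 64.6, 63.9 and 72.7 CPM in XX at 72 h against 36.8, 31.9, 45.9 and 46.1 at 24 h. In XY it had 2 to 9 counts in each library at 24 h (1.37 ± 0.678 CPM) and a single count over the 4 libraries at 72 h. Its interaction (log2 3.84 ± 0.85, FDR = 0.00483) came mostly from that fall in XY (log2 -3.15 ± 0.84, FDR = 0.00826), at very few counts. The XX rise was smaller (log2 0.69 ± 0.20, FDR = 0.0167). Reln, which encodes the secreted protein reelin, rose in XX from 7.02 ± 1.14 to 22.2 ± 5.82 CPM (log2 2.76 ± 0.53, FDR = 0.000752), and Nell1 rose in XX and fell in XY (log2 2.65 ± 0.41, FDR = 3.92e-05). Gldn, a gliomedin gene, opened a gap through a fall in XY, from 8.23 ± 1.61 to 0.853 ± 0.603 CPM, with 13.3 ± 4.69 and 12.9 ± 2.11 in XX (log2 3.29 ± 0.55, FDR = 0.000114).

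Among the defining ovarian regulators, Foxl2, Fst and Wnt4 were called toward XY. Foxl2, the forkhead factor that maintains granulosa identity, rose in XX from 156, 128, 178 and 143 CPM to 272, 219, 188 and 245. In XY it rose from 2.5, 6.94, 4.22 and 1.97 CPM to 21.6, 17.9, 18.4 and 13.3, with no overlap between times. The XY change was the larger (log2 2.09 ± 0.30, FDR = 1.1e-06, against log2 0.61 ± 0.17, FDR = 0.0108 in XX), which gave the interaction (log2 -1.48 ± 0.35, FDR = 0.00906), and the XY libraries remained far below the XX libraries. Fst had 3.22, 4.21, 2.68 and 4.72 CPM in XY at 24 h and 7.65, 9.45, 6.47 and 16.1 at 72 h, again without overlap, and 93.4 ± 20.8 and 82 ± 7.42 CPM in XX (log2 -1.62 ± 0.34, FDR = 0.00281). Wnt4 fell in XX from 359, 347, 328 and 353 CPM to 243, 197, 188 and 218 and was at 117, 147, 106 and 111 and then 159, 133, 137 and 167 CPM in XY (log2 -1.02 ± 0.17, FDR = 6.68e-05).

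Read as a share of the XX mean, XY Foxl2 went from 2.58% at 24 h to 7.71% at 72 h, and XY Fst from 3.97% to 12.1%. Xist was at 0.281% of its XX mean in XY libraries at 24 h and 0.164% at 72 h, and Irx3, an ovarian gene by these data, at 0.584% and 0.564%. Wnt4 went from 34.7% to 70.4% and Runx1 from 4.46% to 8.03%, whereas Irx5 went from 0.494% to 0.235% and Rspo1 from 18.4% to 17.8%. What part XX material had in the XY levels was not tested.

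Across the 13 pre-granulosa genes tested, 3 were called toward XY (Foxl2, Fst and Wnt4) and 0 toward XX, at a median of -0.13. Of all autosomal genes, 0.770% and 1.27% were. In this list 10 were higher in XX at 24 h and 10 at 72 h, against 8.83% and 9.40% of all autosomal genes. Rspo1 (261 ± 10.1 and 238 ± 17.6 CPM in XX, 48 ± 4.8 and 42.3 ± 8.44 in XY; interaction 0.04, FDR = 0.971) and Bmp2 (interaction -0.26, FDR = 0.762) were not called. The list's summed level lay within 2060 to 2340 CPM in XX at 24 h and 1770 to 2050 at 72 h, and within 312 to 373 and 379 to 415 CPM in XY, so in each sex the 2 times did not overlap.

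Among the 17 WNT genes tested, Wnt4 and Sp5 were called toward XY and Dkk1 toward XX, at a median of 0.06. Of all autosomal genes, 0.770% were called toward XY and 1.27% toward XX. Sp5, a direct target of β-catenin signalling, had 22.6, 19.4, 26.8 and 21.3 CPM in XX at 24 h and 11.2, 12.9, 13.4 and 16.7 at 72 h. In XY it had 3.93, 4.46, 3.26 and 3.54 CPM and then 9.97, 7.96, 11.5 and 3.79 (log2 -1.85 ± 0.43, FDR = 0.00724). Every XX library was above every XY library at 24 h, and the sexes overlapped at 72 h. Dkk1, a secreted WNT antagonist, fell in XY from 29.3, 20.3, 42.2 and 34.6 CPM to 5.98, 7.96, 9.96 and 13.7 (log2 1.74 ± 0.47, FDR = 0.0335). Dkk1 was called in 6 of the 16 leave-one-out fits, and not without XX 24 h F4, F5 and F6, XY 24 h M4 and M5, XX 72 h F11, F4 and F7, XY 72 h M2 and M4 (FDR 0.0555 to 0.12). Axin2, the target most used as a readout, had an interaction of -0.73 that was not called. The 250 bases before the start of Sp5 are shown because they hold the letters that TCF/LEF factors bind, ATCAAAG on either strand, in capitals (RefSeq, GRCm38.p6, chr2:70474673-70474922, plus strand):
Sp5: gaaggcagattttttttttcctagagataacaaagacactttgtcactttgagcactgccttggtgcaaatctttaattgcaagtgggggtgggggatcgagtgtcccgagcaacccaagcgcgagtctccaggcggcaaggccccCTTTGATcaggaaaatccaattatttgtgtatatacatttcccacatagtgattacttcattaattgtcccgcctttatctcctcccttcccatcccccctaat
The match begins 104 bases before the start. It was found in 1 of the 13 WNT genes with a promoter in the table and in 3.21% of all 32851 promoters. A gene was counted if any of its promoters matched, so these 2 shares have unlike units.

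**Figure D4:**
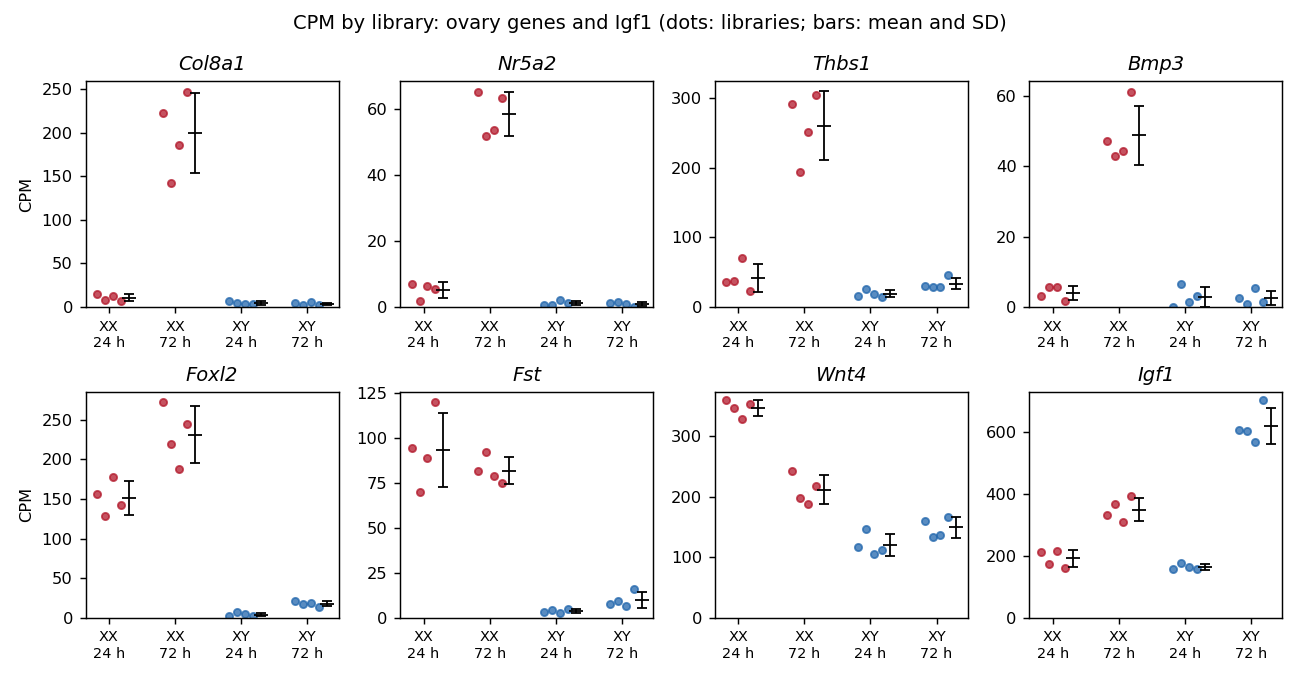
CPM of 8 genes by group; red dots are XX libraries, blue dots XY libraries, and black bars the mean ± SD of 4 libraries. Col8a1, Nr5a2, Bmp3 and Thbs1 rose in XX, Foxl2 and Fst rose in XY from a low level, Wnt4 fell in XX, and Igf1 rose in both sexes and more in XY.

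Most Sertoli genes were not called. Of 22 tested, 1 was called toward XX (Gdnf) and 1 toward XY (Cldn11), against 1.27% and 0.770% of all autosomal genes, at a median of -0.14. In XY, 16 were higher at 24 h and 17 at 72 h, against 10.6% and 10.7% of all autosomal genes. Sox9 had an interaction of 0.37 (FDR = 0.663), Dhh one of 0.71 (FDR = 0.616) and Amh, at few counts, one of 1.62 (FDR = 0.603). Cyp26b1, which degrades retinoic acid, fell in both sexes, from 72 ± 2.54 to 36.8 ± 4.74 CPM in XY and from 7.31 ± 3.2 to 3.75 ± 1.29 in XX (interaction -0.07, FDR = 0.977). Gdnf, the growth factor that Sertoli cells later supply to spermatogonia, rose in XX from 1.04, 1.23, 2.39 and 1.58 CPM to 5.61, 2.94, 10.1 and 6.28. It was at 21.1 ± 0.731 and 20 ± 3.79 in XY (log2 2.20 ± 0.47, FDR = 0.00294). Gdnf was called in 15 of the 16 leave-one-out fits, and not without XX 72 h F7 (FDR = 0.0515). Cldn11, the tight junction claudin of Sertoli cells, crossed, with 56.6, 66.5, 42.1 and 76.5 CPM in XX at 24 h and 41.6, 29.4, 29.7 and 29.3 at 72 h. In XY it had 54.3, 27.8, 32.2 and 24.8 CPM and then 57.2, 81.6, 51.3 and 47.4 (log2 -1.68 ± 0.29, FDR = 0.000158). At 24 h its sexes overlapped through 1 XY library, and at 72 h every XY library was above every XX library.

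Several genes called toward XY rose in XY. Rasl10a, a Ras-like GTPase gene, went from 7.51, 9.42, 6.71 and 3.93 CPM to 45.9, 49.2, 57.8 and 37.4 in XY and from 7.29, 9.81, 10 and 2.37 to 0.467, 3.52, 5.94 and 4.19 in XX (log2 -3.73 ± 0.52, FDR = 3.81e-06). Adamts5, a protease that cuts versican and aggrecan, rose in XY from 29.7, 26, 27.6 and 19.7 CPM to 141, 123, 113 and 123 (log2 -2.30 ± 0.32, FDR = 2.59e-06). Edn1, which encodes endothelin 1, rose from 49.3, 46.1, 45.5 and 29.5 to 132, 129, 118 and 96.2 (log2 -1.81 ± 0.39, FDR = 0.00364). Neither moved in XX by the criterion, where Adamts5 had 10.2 ± 1.43 and 9.77 ± 3.7 CPM and Edn1 6.62 ± 2.91 and 5.34 ± 1.21. Ecel1, Sh3bgr and Slc41a3 rose in XY in the same way, with interactions of -1.91, -2.03 and -1.92, as did Lrp8, a receptor of reelin, at -2.18. Syt13, a synaptotagmin gene, crossed: XX fell from 19.1, 37.3, 25.4 and 29.6 CPM to 7.01, 5.29, 9.81 and 9.94 and XY rose from 8.94, 13.1, 11.9 and 12.2 to 31.9, 24.9, 19.4 and 23.2 (log2 -2.88 ± 0.31, FDR = 3.93e-09). Elavl2, an RNA-binding protein gene, fell in XX from 15.2 ± 5.78 to 4.71 ± 1.04 CPM (log2 -2.27 ± 0.39, FDR = 0.000132). Slitrk5 rose in XY from 3.99 ± 2.86 to 29.1 ± 4.8 CPM (log2 -2.88 ± 0.78, FDR = 0.0323). Slitrk5 was called in 8 of the 16 leave-one-out fits, and not without XX 24 h F5 and F9, XY 24 h M2 and M4, XX 72 h F11, F4 and F8, XY 72 h M6 (FDR 0.05 to 0.407).

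Igf1, a growth factor of the interstitium, rose in both sexes. Its XX libraries went from 213, 175, 217 and 161 CPM to 331, 366, 309 and 392. Those of XY went from 157, 176, 165 and 158 CPM to 607, 605, 567 and 703. The sexes overlapped at 24 h and every XY library was above every XX library at 72 h (log2 -1.05 ± 0.16, FDR = 3.74e-05). Of the 14 interstitial progenitor genes tested, Igf1 and Gata2 were called toward XY (0.770% of all autosomal genes) and 0 toward XX (1.27%), at a median of -0.09. Gata2 (log2 -2.21 ± 0.57, FDR = 0.0229) was called in 11 of the 16 leave-one-out fits, and not without XX 24 h F6, XY 24 h M5, XX 72 h F11 and F4, XY 72 h M4 (FDR 0.0539 to 0.0688). Of 24 extracellular matrix genes, 9 rose in XX and 7 in XY, where 5.17% and 4.10% of all autosomal genes did. Col6a3 was the only one called in the interaction (toward XX, against 1.27% of all autosomal genes). It rose in XX from 51.4 ± 8.8 to 91.9 ± 20.7 CPM and stood at 209 ± 40.1 and 171 ± 22 in XY (log2 1.14 ± 0.22, FDR = 0.000933). Col1a1, for example, rose from 300 ± 47.8 to 752 ± 165 CPM in XX and from 597 ± 109 to 1260 ± 61 in XY (interaction 0.24, not called). Lama2, a laminin chain, rose in both and more in XX (log2 1.48 ± 0.32, FDR = 0.00373). In the smooth muscle and pericyte list, 1 of 14 was called, toward XY (against 0.770% of all autosomal genes): Myh11, a smooth muscle myosin. The list median was 0.21, with 9 positive and 5 negative estimates. At 24 h 10 members were higher in XY, against 10.6% of all autosomal genes, and Myh11 was the only one higher in XX. In XX it had 175, 140, 137 and 164 CPM at 24 h and 136, 99.3, 100 and 97.8 at 72 h, and in XY it rose from 32.9, 39.7, 31.3 and 29.9 to 88.1, 63.2, 54.3 and 70.1 (log2 -1.56 ± 0.26, FDR = 0.000117).

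Of 25 cell cycle genes tested, 2 were called toward XY and 0 toward XX, against 0.770% and 1.27% of all autosomal genes. In 24 the interaction was negative (46.9% of all autosomal genes), and the median was -0.36. By the same criterion 3 were higher in XY at 24 h and 16 at 72 h, against 10.6% and 10.7% of all autosomal genes. Cenpe, a kinetochore motor, had 159 ± 16.7 and 215 ± 9.67 CPM in XY and 108 ± 8.61 and 93.9 ± 8.41 in XX (log2 -0.63 ± 0.15, FDR = 0.00931). Cenpe was called in 15 of the 16 leave-one-out fits, and not without XY 24 h M4 (FDR = 0.0382). Mcm3, a subunit of the replicative helicase, had 95.9 ± 8.57 and 116 ± 11.5 CPM in XY and 80.8 ± 9.44 and 63.8 ± 7.59 in XX (log2 -0.61 ± 0.16, FDR = 0.0231). Mcm3 was called in 11 of the 16 leave-one-out fits, and not without XX 24 h F9, XY 24 h M3 and M4, XX 72 h F8, XY 72 h M2 (FDR 0.0437 to 0.0895). Where the FDR stayed under 0.05, as for Cenpe without XY 24 h M4 and Mcm3 without XY 24 h M3, the call was lost because the difference fell under 1.5-fold. Mki67, a proliferation marker, rose in XY from 199 ± 38.5 to 308 ± 31.2 CPM and had 131 ± 19.1 and 135 ± 31 in XX (interaction -0.57, not called). The CDK inhibitor gene Cdkn1a fell in XX from 88.9, 116, 107 and 100 CPM to 35.5, 46.4, 53.8 and 40.8. It was at 27.2 ± 5.89 and 27.7 ± 6.19 in XY (log2 -1.23 ± 0.25, FDR = 0.00138). Cdkn1a was the only one called of 5 CDK inhibitor genes tested, toward XY, against 0.770% of all autosomal genes.

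The promoters of Cenpe and Mcm3 are shown because cell cycle promoters often carry CCAAT boxes, the letters CCAAT on either strand, here in capitals (RefSeq, GRCm38.p6, the 250 bases before the start; Cenpe chr3:135212313-135212562, plus strand; Mcm3 chr1:20820313-20820562, minus strand):
Cenpe: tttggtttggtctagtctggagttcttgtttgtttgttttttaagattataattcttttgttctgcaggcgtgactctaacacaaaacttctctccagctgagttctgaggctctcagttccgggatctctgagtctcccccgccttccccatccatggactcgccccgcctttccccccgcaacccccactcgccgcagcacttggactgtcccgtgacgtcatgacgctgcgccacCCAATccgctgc
Mcm3: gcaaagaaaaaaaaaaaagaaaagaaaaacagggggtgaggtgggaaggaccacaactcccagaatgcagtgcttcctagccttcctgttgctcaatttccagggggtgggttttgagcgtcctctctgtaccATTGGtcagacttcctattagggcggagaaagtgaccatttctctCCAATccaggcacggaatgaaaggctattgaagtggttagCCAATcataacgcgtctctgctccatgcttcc
The box was found in 19 of the 22 cell cycle genes with a promoter in the table (86.4%) and in 33.8% of all 32851 promoters. Among DEGs with a promoter it was found in 38 of 88 toward XY and in 39 of 133 toward XX. Here too a gene was counted if any of its promoters matched, so shares of genes and of promoters have unlike units. The search covered 19 motifs, chosen with the results known, and these are matches of letters, not sites. The nuclear receptor letters CAAGGTCA were in 0 of the 133 genes toward XX and 1 of the 88 toward XY, against 1.33% of all promoters. The GLI letters TGGGTGGTC were in 0 and 1, against 0.225%.

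Immediate-early genes respond quickly to growth signals and to cell dissociation. Of 13 tested, 10 rose in XY and 3 in XX, where 4.10% and 5.17% of all autosomal genes did. The interaction was negative in 12, against 46.9% of all genes, and 2, Jun and Atf3, were called toward XY, against 0.770% (median -0.49). Jun had 413, 474, 478 and 575 CPM in XY at 24 h and 705, 873, 564 and 928 at 72 h, with 693 ± 89.7 and 711 ± 145 in XX (log2 -0.62 ± 0.18, FDR = 0.0495). Jun was called in 5 of the 16 leave-one-out fits, and not without XX 24 h F6 and F9, XY 24 h M2, M3 and M4, XX 72 h F4, F7 and F8, XY 72 h M2, M4 and M6 (FDR 0.0538 to 0.144). Atf3 rose in XY from 20.7 ± 3.86 to 52.3 ± 11.4 CPM (log2 -1.82 ± 0.45, FDR = 0.0146). Atf3 was called in 15 of the 16 leave-one-out fits, and not without XX 24 h F5 (FDR = 0.0808). Fos rose in XY from 550 ± 166 to 1080 ± 298 CPM and had 721 ± 131 and 1000 ± 215 in XX (interaction -0.49, not called). Of 13 hypoxia and glycolysis genes, 2 were called toward XY and 0 toward XX, against 0.770% and 1.27% of all autosomal genes (median -0.42). Adm, which encodes the vasodilator adrenomedullin, rose in XY from 3.93, 4.21, 4.03 and 1.18 CPM to 11.3, 14.9, 12.9 and 6.63 and had 25.8 ± 3.35 and 16.5 ± 4.53 in XX (log2 -2.33 ± 0.44, FDR = 0.000682). Pdk1, a kinase that restrains pyruvate oxidation in mitochondria (log2 -0.85 ± 0.24, FDR = 0.0458), was the other one. Pdk1 was called in 6 of the 16 leave-one-out fits, and not without XX 24 h F5 and F9, XY 24 h M2, M3 and M5, XX 72 h F11, F4 and F8, XY 72 h M4 and M6 (FDR 0.0554 to 0.184). Of 11 ER stress genes, Atf3 was the only one called, toward XY, against 0.770% of all autosomal genes.

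Of the 16 endothelial genes tested, 11 fell in XY and 4 in XX, where 3.10% and 2.96% of all autosomal genes did. The median interaction was 0.90, and 1, the transcription factor gene Sox18, was called toward XX, against 1.27% of all genes (log2 2.06 ± 0.50, FDR = 0.0138). Sox18 had 7.15, 7.93, 9.59 and 8.65 CPM in XY at 24 h and 3.32, 1.99, 3.49 and 3.32 at 72 h. By the same criterion 14 endothelial genes were higher in XY at 24 h and 3 at 72 h, against 10.6% and 10.7% of all autosomal genes. The summed endothelial level was 184 to 237 CPM in XX and 366 to 562 in XY at 24 h, against 157 to 218 and 179 to 307 at 72 h. Flt1, a VEGF receptor, fell from 13.1 ± 2.66 to 4.61 ± 2.53 CPM in XX and from 45 ± 13.8 to 10.7 ± 3.15 in XY. Of the 11 erythroid and 14 macrophage genes, 0 were called by edgeR, DESeq2 or voom, where edgeR called 2.04% of all autosomal genes (medians 0.60 and 0.48). An unadjusted p under 0.05 was found for 2 and 0 of them, and for 1758 of the 14543 autosomal genes. The summed erythroid level was 961 to 2200 CPM in XX and 2750 to 8080 in XY at 24 h, and 142 to 597 and 314 to 1730 at 72 h. In the macrophage list 9 genes rose in XX and 7 in XY, where 5.17% and 4.10% of all autosomal genes did. Among them, Lyz2, a lysozyme gene, rose from 7.29 ± 4.66 to 61.3 ± 38.2 CPM in XX and from 9.48 ± 5.36 to 61.7 ± 30 in XY. The part of these cells in the other results was not tested.

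Of the 13 germ cell identity genes, 8 fell in XX and 9 in XY, where 2.96% and 3.10% of all autosomal genes did. The median interaction was -0.84. Dazl, which encodes an RNA-binding protein of germ cells, went from 63.5 ± 20.2 to 6.07 ± 3.54 CPM in XX and from 42.4 ± 7.79 to 6.81 ± 2.77 in XY. Tdrd5, a tudor domain gene that germ cells use for piRNAs, was the only one of the 13 called, toward XX, against 1.27% of all autosomal genes. Tdrd5 differed from the rest in XX. It rose there from 14.2, 7.11, 4.31 and 9.46 CPM to 19.6, 17, 26.1 and 26.7 and fell in XY from 4.29, 3.22, 3.26 and 6.29 to 0.665, 0.995, 0.498 and 1.42 (log2 3.50 ± 0.70, FDR = 0.00139). Of 12 meiosis genes, only Stra8, the retinoic acid target that precedes meiosis, was called, toward XY (log2 -2.86 ± 0.82, FDR = 0.0469), against 0.770% of all autosomal genes. In XX it had 11.5, 13, 6.7 and 15.4 CPM at 24 h and 9.35, 3.52, 0.297 and 4.71 at 72 h, with overlap. In XY it had 1.43, 0.744, 1.34 and 0 CPM and then 1.66, 3.98, 2.49 and 2.37, at 0 to 8 counts. Stra8 fell in XX (log2 -1.48 ± 0.46, FDR = 0.0248), and the XY change of log2 1.385 ± 0.67 was not called (FDR = 0.194). It was called in 3 of the 16 leave-one-out fits, and not without XX 24 h F4, F5 and F9, XY 24 h M3, M4 and M5, XX 72 h F4, F7 and F8, XY 72 h M2, M4, M5 and M6 (FDR 0.0516 to 0.146). The summed meiosis level was 230 to 317 CPM in XX and 94.5 to 130 in XY at 24 h, and 68.0 to 137 and 71.1 to 93.4 at 72 h. Sycp3 and Ddx4 had interactions of 0.22 (FDR = 0.955) and -2.51 (FDR = 0.179). Of the 12 retinoic acid, 13 duct, 9 coelomic epithelium and 3 oocyte genes tested, 0 were called by edgeR, DESeq2 or voom (medians -0.04, 0.01, -0.25 and 0.45). By edgeR, 2.04% of all autosomal genes were called. At an unadjusted p under 0.05 there were 3, 1, 1 and 0, against 1758 of the 14543 autosomal genes.

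**Figure D5:**
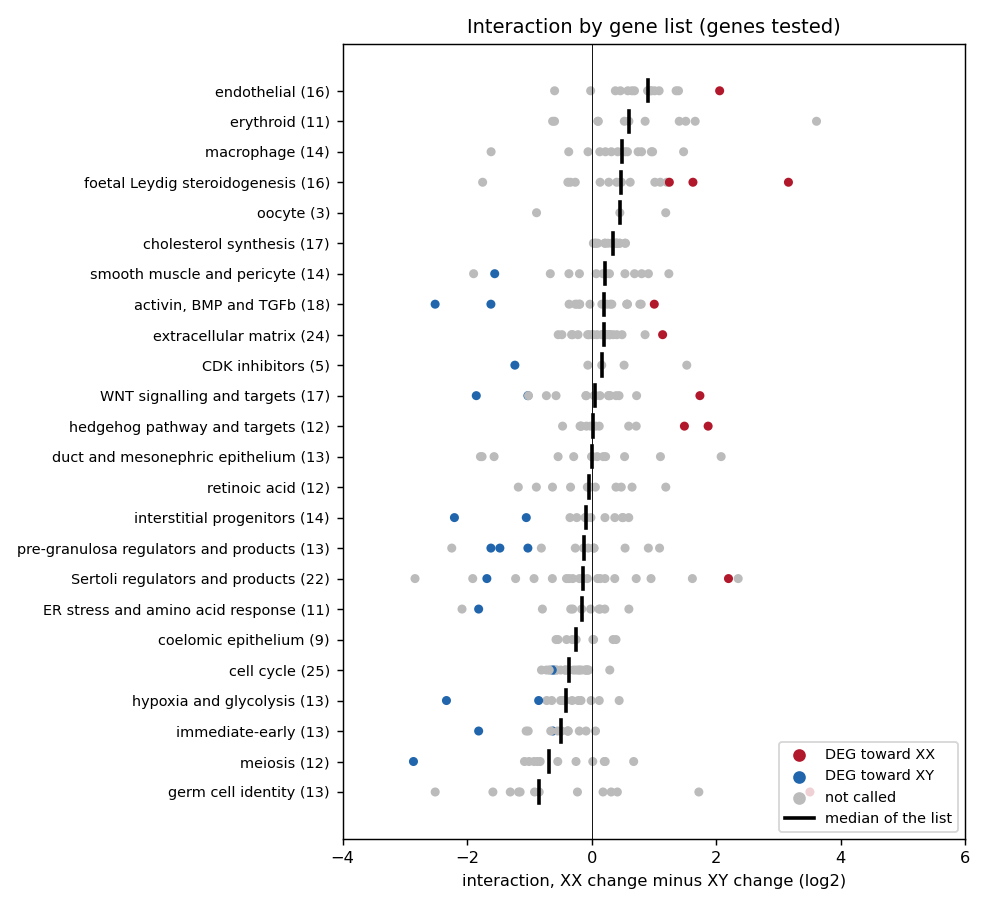
Interaction (log2, XX change minus XY change) of every tested member of the 24 gene lists, one dot a gene, with the number tested in brackets; red dots are DEGs toward XX, blue dots DEGs toward XY and black bars list medians. List medians ran from -0.84 for germ cell identity to 0.90 for endothelial genes, and all 17 cholesterol synthesis genes lay above 0, whereas 24 of 25 cell cycle and 12 of 13 immediate-early genes lay below it.

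Among the 18 genes that crossed, Lratd1 and Cnmd, which encodes the angiogenesis inhibitor chondromodulin, went from lower in XX to higher in XX through a rise in XX, with interactions of 1.81 and 1.99. Thsd1 crossed through a fall in XY, from 12.7 ± 4.87 to 3.27 ± 2.12 CPM (log2 2.40 ± 0.52, FDR = 0.00362). Elane and Mpo, which encode neutrophil granule proteins, also crossed, at uneven levels: Elane had 1.87, 21.1, 22.3 and 7.32 CPM in the XX libraries at 72 h and Mpo 10.7, 33.5, 40.4 and 8.89. Mpo (log2 2.45 ± 0.60, FDR = 0.0145) was called in 14 of the 16 leave-one-out fits, and not without XY 24 h M3, XX 72 h F7 (FDR 0.0867 to 0.0973). DESeq2 did not call Mpo. Elane (log2 3.63 ± 0.96, FDR = 0.0272) was called in 8 of the 16 leave-one-out fits, and not without XX 24 h F4, F5 and F6, XY 24 h M3, XX 72 h F4 and F7, XY 72 h M2 and M6 (FDR 0.05 to 0.121).

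Of the genes that changed in both sexes in one direction, Myo1a fell in both and more in XY (log2 1.28 ± 0.27, FDR = 0.00226). So did Hmga2, an architectural chromatin protein gene, from 349 ± 11.4 to 92.5 ± 15.1 CPM in XY and 158 ± 36.6 to 70.9 ± 12.3 in XX (log2 0.75 ± 0.19, FDR = 0.0185). Hmga2 was called in 10 of the 16 leave-one-out fits, and not without XX 24 h F6 and F9, XX 72 h F11 and F8, XY 72 h M2 and M4 (FDR 0.0595 to 0.0826). Tgfbi, a matrix protein gene induced by TGFβ (log2 0.62 ± 0.17, FDR = 0.03), fell in both as well. Tgfbi was called in 7 of the 16 leave-one-out fits, and not without XX 24 h F4 and F6, XY 24 h M2 and M4, XX 72 h F11 and F7, XY 72 h M4, M5 and M6 (FDR 0.0564 to 0.105). Spsb1 rose in both and more in XX (log2 1.00 ± 0.28, FDR = 0.0382). Spsb1 was called in 5 of the 16 leave-one-out fits, and not without XX 24 h F4, F5 and F9, XY 24 h M3 and M5, XX 72 h F11, F7 and F8, XY 72 h M2, M4 and M6 (FDR 0.0542 to 0.187). Cpa1, a carboxypeptidase gene, fell in XX from 250, 309, 204 and 248 CPM to 15, 18.8, 10.4 and 7.85 and in XY from 39, 36.9, 30.9 and 35.8 to 2.33, 2.98, 8.47 and 5.21 (log2 -1.36 ± 0.38, FDR = 0.0426). Cpa1 was called in 9 of the 16 leave-one-out fits, and not without XX 24 h F5, XY 24 h M4 and M5, XX 72 h F7 and F8, XY 72 h M5 and M6 (FDR 0.0535 to 0.358). Aldh1b1, a mitochondrial aldehyde dehydrogenase gene, fell in both and more in XX (log2 -0.91 ± 0.21, FDR = 0.0064). Where neither change alone was called, the named genes had estimates of opposite sign in the sexes: Pde1a and Crip2 toward XX (1.10 and 1.02) and Abcc1 and Tchh toward XY (-1.09 and -1.04). Tmem106c (log2 1.04 ± 0.29, FDR = 0.0428) and Cep152 (log2 -1.20 ± 0.33, FDR = 0.0391) belonged to this class too. Tmem106c was called in 6 of the 16 leave-one-out fits, and not without XX 24 h F4, F5 and F9, XY 24 h M3 and M5, XX 72 h F11 and F4, XY 72 h M2, M4 and M6 (FDR 0.0511 to 0.124). Cep152 was called in 6 of the 16 leave-one-out fits, and not without XX 24 h F4 and F9, XY 24 h M4 and M5, XX 72 h F11, F4 and F8, XY 72 h M2, M4 and M6 (FDR 0.054 to 0.0918). Sptb, a spectrin gene, fell in XX (log2 -1.65 ± 0.39, FDR = 0.00838).

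By position, the share of tested genes called ran from 0.725% to 3.58% over the 19 autosomes, the highest being on chromosome 10, where 18 genes were called toward XX and 8 toward XY. In 11 cases 2 DEGs followed each other along a chromosome among the genes tested, 8 of them in the same direction and 3 in opposite directions. Whether this exceeds what 2.04% of genes called would give was not tested. Adamts1 and Adamts5, proteases with a shared domain structure, lie side by side on chromosome 16 (GRCm39, 85590579 to 85600009 and 85653061 to 85698716, minus strand) and had interactions of -1.10 and -2.30. Prtn3 and Elane lie side by side on chromosome 10 (79710310 to 79719008 and 79722081 to 79724051, plus strand) at 2.38 and 3.63. Smoc2 and Thbs2, neighbours on chromosome 17, went in opposite directions (1.40 and -1.60).

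Of the 296 DEGs, 292 were also called by DESeq2, and 161 were called in all 16 fits that each left out 1 library, and the others lost the call in at least 1 of them. Tests that ask whether the difference exceeds 1.5-fold, rather than differs from 0, left 52 of them by glmTreat and 21 by voom with treat. Those 21 were Col8a1, Nr5a2, Prokr2, Hsd3b1, Hsd11b2, Tac2, Gldn, Reln, Nell1, Thbs1, Ubash3b, Ephx2, Igfbp7, Tenm4, 8030451A03Rik and C230038L03Rik toward XX, and Rasl10a, Syt13, Fstl3, Adamts5 and Ecel1 toward XY.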

How the data were processed

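Gonads were cultured and GFP-negative cells were sorted as described above, and libraries were made from poly(A) RNA primed at the 3′ end with unique molecular identifiers. According to the methods, which are written for the germ cell libraries, the authors aligned with Rsubread against GRCm39, used scPipe to count exons by strand and collapse identifiers, and added lanes. The deposited values are raw counts of identifiers per gene, not normalized. The submitters' processing notes also name edgeR and limma. Among the columns of counts, 1 named for a 24 h inhibitor library matched no sample description and was not used.

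Counts were filtered with filterByExpr, scaled by TMM and tested with edgeR 4.0.16 (R 4.3.3, quasi-likelihood test) in 1 model over all 39 labelled libraries, which share the estimate of spread, with no other covariate. A DEG had FDR under 0.05 and at least 1.5-fold, among 15390 genes tested, and autosomal genes were counted. The study's own criterion, voom with quality weights and treat (limma 3.58.1), DESeq2 1.42.0, other scalings and filters, a replicate block and leaving out each library were alternatives. Replicates were separate pools, and pairs of libraries within a group differed by 2.23 to 7.69 in chi-square per degree of freedom, so none was a copy. Counts are limited by depth (median 2564612 per library).

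The 24 gene lists and the members were chosen with earlier results of these data known. Genes named were the called and the defining members of the lists, the 15 protein-coding DEGs with the largest interaction in each direction, the 3 largest of each class of movement and up to 10 that crossed, those outside the lists having at least 10 CPM in a group. Msmo1, Sc5d, Ptch1, Inha, Axin2, Col1a1, Mki67, Fos, Flt1, Lyz2, Dazl, the neighbouring pairs and the 21 genes called by voom with treat were named after their values were seen. Same-strand overlaps make Dhh (with Rhebl1) and Cyp11a1 (with Gm17322) uncertain. Promoter sequences came from RefSeq (GRCm38.p6), matched by symbol.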

Additional observations from a re-analysis of the deposited data

Results flagged for a closer look

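In 18 of 328 groups of 4 libraries (5.49%), 1 library stood apart from the other 3 by Dixon's criterion, which chance meets in about 1 of 20 groups. In XY at 72 h, M6 was apart for Adamdec1 (0.474 CPM), Thbs1 (46.4 CPM), Amh (0.474 CPM) and Dhh (36.5 CPM), M5 for Hsd3b1 (351 CPM) and Star (50.8 CPM), M2 for Tgfbi (110 CPM) and M4 for Sox18 (1.99 CPM). In XX at 72 h, F11 was apart for Reln (30.8 CPM), Cldn11 (41.6 CPM) and Myh11 (136 CPM), F7 for Ddx4 (1.19 CPM) and F4 for Col6a3 (61.1 CPM). In XY at 24 h it was M5 for Gldn (10.6 CPM) and Adm (1.18 CPM), and in XX at 24 h F5 for Ecel1 (20.6 CPM) and Amh (0.981 CPM) and F6 for Gramd1b (21.5 CPM). The interactions of Adamdec1, Thbs1, Hsd3b1, Reln, Cldn11, Myh11, Col6a3, Sox18, Gldn, Adm and Ecel1 were called in all 16 fits that each left out 1 library.

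The change from 24 to 72 h differed between XX and XY in 296 autosomal genes by the test of the interaction itself. Outside the autosomes, 14 genes were called by the same test among 590 sex-chromosome genes tested, all of them on the X chromosome. Gpm6b, a myelin protein family gene, had an interaction of log2 0.79 ± 0.15 (FDR = 0.000761), Cdk16, a kinase gene, one of -0.91 ± 0.18 (FDR = 0.00112) and Pls3, an actin-bundling protein gene, one of -0.84 ± 0.17 (FDR = 0.00115). These 3 were named after their values were seen.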

How the results depend on the processing

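Both interaction counts (184 toward XX and 112 toward XY) stayed within 1.5 times of these values under RLE scaling (179 and 120), no composition factor (180 and 95), no filter (246 and 147), a 1 CPM filter (161 and 119), DESeq2 (192 and 152), adjustment over autosomal genes (184 and 112) and a fit of the 16 libraries alone (169 and 113). Voom with quality weights and treat gave 16 and 5, with 142 genes for the XX change, 179 for the XY change, 1110 for the gap at 24 h and 1035 at 72 h, and glmTreat gave 35 and 17, 291, 268, 1528 and 1435, both tests requiring a difference beyond 1.5-fold. Leaving out 1 library gave 138 to 181 and 85 to 130 for the interaction, 969 to 1187 for the XX change, 859 to 1185 for the XY change, 2586 to 2828 for the gap at 24 h and 2628 to 2939 at 72 h.

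Groups shared some replicate names. The deviations of same-named libraries correlated at 0.0795 for XX F4 and at -0.0764, -0.0217 and 0.168 for XY M2, M4 and M5. Between the sexes, same-numbered libraries correlated at -0.219 (F4 and M4) and -0.109 (F5 and M5) at 24 h and at 0.0215 (F4 and M4) at 72 h. Whether the names mark shared litters or cultures cannot be told from these values. With the name as a random replicate block, voom gave 167 and 104, at a consensus correlation of -0.021, against 176 and 108 without the block, which was added after seeing the data. For the XY change a fixed block over the 3 shared names gave 1191 genes, against 1177 for the same libraries without it, also added after seeing the data.

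Over the 82 named genes, 1903 alternative values kept their direction and side of the threshold, 293 fell short of it, 2 passed it and 16 turned direction. The 16 belonged to genes not called. Leaving out 1 library put Rspo1 between -0.04 and 0.144, Star between -0.197 and 0.346, Cyp26b1 between -0.329 and 0.088 and Sycp3 between -0.781 and 0.573. Rspo1 was at -0.004 without XY 24 h M5, -0.032 without XX 72 h F11 and -0.04 without XY 72 h M4 or M5, and Star at -0.197 without XX 72 h F7. Cyp26b1 was at 0.003 with the random block, 0.045 and 0.088 without XX 24 h F4 or F5, and 0.008 and 0.03 without XX 72 h F7 or F8. Sycp3 was at -0.24 by voom with treat, -0.416 with the random block, -0.398 without it, -0.098 without XY 24 h M2, -0.781 without XX 72 h F11 and -0.034 without XY 72 h M5. Cyp11a1 was called without the filter on low counts (log2 1.03, FDR = 0.000425) and Ddx4 without XX 72 h F7 (log2 -5.74, FDR = 0.0326). The causes were not tested. Amh and Insl3 were genes of few counts, and the reason for their low counts was not tested.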

Other observations

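A few further genes are given as values, picked after their values were seen, with no count or test of a group behind them. Rad51ap1, a gene of homologous recombination, had a mean of 25.1 CPM in XY at 24 h and 45.0 at 72 h, against 18.7 and 13.1 in XX (interaction -1.35). Bub1b, a spindle checkpoint kinase gene, had 21.2 and 39.4 CPM in XY and 18.8 and 16.1 in XX (-1.09). Clps, which encodes colipase, had 6.33 to 9.67 CPM in the XY libraries at 24 h, 0 to 0.498 in XY at 72 h, 0 in every XX library at 24 h and 0 to 1.17 in XX at 72 h. Cela3b, an elastase gene, had 6.70 to 13.5 CPM in XX at 24 h and 6.08 to 11.6 at 72 h, and went from 2.73 to 3.93 CPM in XY at 24 h to 0 in every XY library at 72 h.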
